A study of Bombus lucorum with 81 samples.

Results

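The gene LOC100642581 is annotated as solute carrier family 2, facilitated glucose transporter member 1, and is called glucose transporter 1 here. It is 1 row of a count table of 10581 genes, read in 81 workers of the bumblebee *Bombus lucorum*, and it was chosen by name with its difference between cool and warm bees already known. Poly-A RNA of thorax and abdomen, without head, legs, wings and gut, was sequenced with 1 library per bee. The bees came from 16 grassland sites in 3 elevational belts, of which 6 were lowland (30 bees), 5 mid-elevation (25 bees) and 5 highland sites (26 bees). In all, 45 bees were caught on 9 sites with livestock grazing and 36 on 7 ungrazed sites. Of the lowland bees, 13 were caught at lower and 17 at higher air temperature, and these are called cool and warm. All were free-flying workers of unknown age, and bees of 1 site may be nestmates, so that bees, although each is its own library, may not be independent within a site. Belts follow the altitude in the sample labels, while grazing and temperature class were taken from the site and sampling tables of the study, since the labels do not give them.

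Glucose transporters of this family let glucose pass through a cell membrane along its concentration gradient, without using energy. In insects most of the sugar in the haemolymph is trehalose, a disaccharide made in the fat body from glucose. Trehalose enters cells through transporters such as Tret1, and the enzyme trehalase splits it into glucose, which glycolysis then breaks down. Bumblebees warm themselves in cool air by contracting the flight muscles of the thorax, which burn sugar at a high rate.

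In the B. terrestris assembly Bter_1.0 the gene lies on the minus strand from base 12700623 to 12723182 of its contig, a span of 22560 bases with 2864 bases of exons. No other gene of the table overlaps it. The neighbour on its lower side, LOC100644735, ends 4076 bases away on the same strand, and the neighbour on its upper side, LOC100646480, begins 838 bases away on the plus strand. Reads were counted by strand, and 4 of the 81 values of glucose transporter 1 were not whole numbers, against 28.5% of all values of the table, so that few of its reads were shared with another gene. The gene had between 408 and 4294 reads per bee, with a median of 1787. Counting error alone is thus 4.95% of the value in the bee with fewest reads and 1.53% in the bee with most, far below the differences between bees.

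Glucose transporter 1 was read in every bee. Its normalised read count (CPM, the count scaled to a fixed library size) was between 16.8 and 187, with a median of 61.1. The highest bee had 11.2 times the level of the lowest, but it held only 3.39% of the summed level of all bees, so that no single bee carried the gene. Scaled by exon length the mean level was 23.8 RPKM, reads scaled by both depth and length, against a median of 11.8 over 9475 genes, which put it at percentile 69.6 of these genes. The spread between bees within a belt, as a biological coefficient of variation, was 0.457, against a median of 0.320 over the same genes.

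The level was lower in warm than in cool lowland bees. In the 13 cool bees it was 58.1 at the lowest, 81.9 at the median and 111 at the highest, with a mean of 81.2 ± 17.3 CPM (SD, n = 13). In the 17 warm bees it was 16.8 at the lowest, 39.9 at the median and 90.7 at the highest, with a mean of 42.9 ± 18.7 CPM (SD, n = 17). The groups overlapped, since 3 warm bees lay at or above the lowest cool bee. None of the cool bees and 9 of the warm bees were under 40 CPM. The fitted log2 fold change from cool to warm was -0.94 with a standard error of 0.18, a level 1.92 times higher in the cool bees. Of the 9305 genes tested in this contrast, 4.06% were called, that is, had a p under 0.05 after Benjamini-Hochberg adjustment and a log2 change of 0.5 or more in either direction, with 3.1% higher and 0.967% lower in warm bees. Because this contrast chose the gene, its values are given as a description with no test.

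The single sites show where these values come from. At the cool grazed site Wmb1 (960 m) the 5 bees had 97.0, 92.3, 104.9, 81.9 and 58.1 CPM. At the cool ungrazed site T5 (746 m) they had 73.6, 63.9, 89.0, 111.3 and 61.0 CPM. All of these bees were above the mean of the warm bees. At the warm grazed site Wma1 (766 m) the values were 49.3, 16.8, 23.9, 24.4 and 48.1 CPM, the lowest set of any site. At the warm grazed site H2 (987 m) they were 35.8, 30.0, 23.3, 67.9 and 51.7 CPM, and at the warm ungrazed site T3 (656 m) 50.5, 39.9, 90.7, 33.4 and 60.2 CPM. The 3 warm bees that reached the cool range were thus 2 from T3 and 1 from H2.

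Site T4 (641 m, ungrazed) was the only lowland site with bees of both classes. Its 3 cool bees had 64.0, 73.1 and 85.9 CPM and its 2 warm bees 48.0 and 36.0 CPM, and the classes did not overlap there. With so few bees this is a description of 5 libraries. At grazed sites the log2 fold change from cool to warm was -1.25, with means of 86.9 ± 18.1 (SD, n = 5) and 37.1 ± 16.4 CPM (SD, n = 10). At ungrazed sites it was -0.62, with means of 77.7 ± 16.98 (SD, n = 8) and 51.2 ± 19.7 CPM (SD, n = 7). The difference between these values was not tested, since all 5 cool bees of grazed sites came from Wmb1, so that class and site cannot be told apart there. With each lowland site left out in turn, the log2 fold change lay between -1.11 and -0.79.

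**Figure D1:**
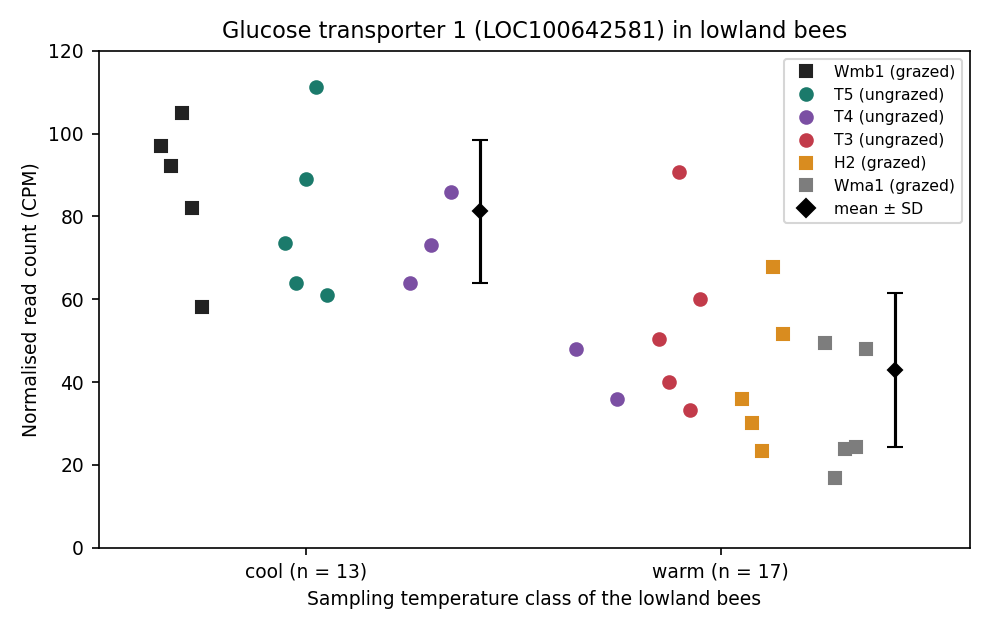
Normalised read count of glucose transporter 1 (y axis, CPM) in each of the 30 lowland bees, by sampling temperature class, coloured by site (squares: grazed, circles: ungrazed), with the mean ± SD of each class as a black diamond. Cool bees lie between 58.1 and 111 CPM, and 3 of the 17 warm bees reach that range.

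Across the lowland bees, the level was lower at higher sampling temperature in degrees (Pearson r = -0.63, Spearman rho = -0.59, n = 30, and r = -0.57 without the 2 bees farthest from the median temperature). Within the classes, in the cool bees r was -0.44 (rho = -0.33, n = 13) and in the warm bees 0.35 (rho = 0.33, n = 17). Bees of a site share their weather, so that these values are descriptions over few sites.

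Between the belts the gene was not called in any comparison. The level was 59.5 ± 26.2 CPM in lowland bees (SD, n = 30), 65.2 ± 26.4 CPM in mid-elevation bees (SD, n = 25) and 81.1 ± 41.4 CPM in highland bees (SD, n = 26). The lowest, median and highest bees had 16.8, 59.1 and 111 CPM among lowland bees, 32.9, 61.1 and 137 CPM among mid-elevation bees, and 29.6, 80.1 and 187 CPM among highland bees. The ranges overlapped over most of their length. In the highland, 6 of the 26 bees were above the highest lowland bee, and 11 were below the lowland median. A level over 100 CPM was read in 12 bees, 8 of them from the highland, 2 from mid-elevation and 2 from the lowland. Side by side, the mean of the cool lowland bees was about that of the highland bees. The mean of the warm lowland bees was below the means of both higher belts, with overlapping ranges. The gene was chosen by the difference between these lowland classes, so that this is a description only.

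Against lowland bees, highland bees were higher by 0.45 on the log2 scale (standard error 0.18, 95% interval 0.10 to 0.80, edgeR quasi-likelihood test, p = 0.0143, adjusted p = 0.167). Of the 9475 genes tested, 0.686% were called in this comparison, 0.179% higher and 0.507% lower in the highland. Against mid-elevation bees the log2 fold change in the highland was 0.31 (standard error 0.19, interval -0.05 to 0.68, adjusted p = 0.433 in edgeR), with 0.211% of genes called, 0.106% in each direction. From lowland to mid-elevation it was 0.13 (standard error 0.18, interval -0.22 to 0.49, adjusted p = 0.748 in edgeR), with 0.369% of genes called, 0.116% higher and 0.253% lower at mid-elevation. The first and the last of these comparisons use the lowland bees of the temperature contrast, and share them with each other, and the first turned on 1 site. Without Wmb1, the cool grazed lowland site, this value was 0.59 and was called (adjusted p = 0.0438 in edgeR), and with any other site left out it was not.

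Taken by site, which does not count bees of a site as independent, the belts did not differ beyond the spread between sites. The mean log2 CPM per site was 6.13 ± 0.36 in the highland (SD, n = 5 sites), 5.92 ± 0.14 at mid-elevation (SD, n = 5) and 5.74 ± 0.58 in the lowland (SD, n = 6). Highland and lowland sites differed by 0.39 (two-sided exact permutation p = 0.225, adjusted over 4 comparisons 0.402). Between highland and mid-elevation sites it was 0.21 (exact permutation p = 0.302, adjusted 0.402), and between mid-elevation and lowland sites 0.18 (exact permutation p = 0.55, adjusted 0.55). The smallest p that these numbers of sites allow is 0.00216 for the comparisons with the lowland and 0.00794 for highland against mid-elevation. The lowland sites were spread most widely, and the mid-elevation sites least. All lowland sites but T4 hold only 1 temperature class. The lowland spread and the site comparisons with the lowland are thus not independent of the contrast that chose the gene.

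**Figure D2:**
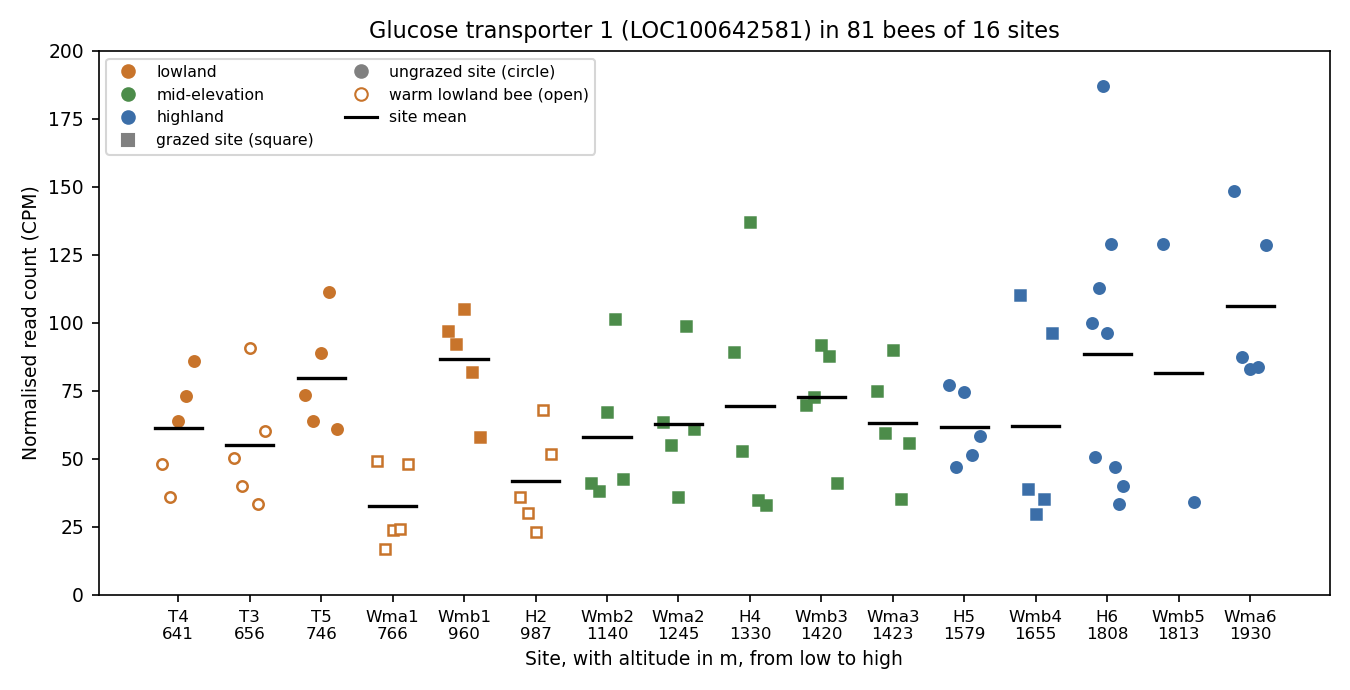
Normalised read count of glucose transporter 1 (y axis, CPM) in each of 81 bees, by site in order of altitude (x axis). Colours mark belts, squares grazed and circles ungrazed sites, open symbols warm lowland bees, and black lines site means, which run from 32.5 CPM at Wma1 to 106 CPM at Wma6.

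Bees of 1 site differed widely in the higher belts. At H6 (1808 m, ungrazed) the 9 bees ran from 33.3 CPM over a median of 96.1 to 187 CPM, and at Wmb5 (1813 m, ungrazed) the 2 bees had 129 and 34.1 CPM. At Wmb4 (1655 m), the only grazed highland site, the values were 110.2, 39.1, 29.6, 35.2 and 96.2 CPM. The bees of these sites were spread over most of the highland range. At the highest site, Wma6 (1930 m, ungrazed), they were 148, 87.6, 83.1, 83.6 and 129 CPM, so that every bee was above the highland median. At H5 (1579 m, ungrazed) they were 77.0, 46.9, 74.5, 51.3 and 58.2 CPM, every one below that median.

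The mid-elevation sites, all grazed, had similar means with wide ranges. Wmb2 (1140 m) had 41.1, 38.1, 67.2, 101 and 42.5 CPM, and Wma2 (1245 m) had 63.4, 55.1, 36.0, 98.7 and 61.1 CPM. H4 (1330 m) had 89.4, 53.0, 137, 34.8 and 32.9 CPM. Wmb3 (1420 m) had 69.9, 72.7, 91.9, 87.9 and 41.2 CPM, and Wma3 (1423 m) had 74.9, 59.5, 90.0, 35.4 and 55.7 CPM. In each of these sites the highest bee had at least 2.23 times the level of the lowest.

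Ordered by mean level from the lowest, the sites were Wma1, H2, T3, Wmb2, T4, H5, Wmb4, Wma2, Wma3, H4, Wmb3, T5, Wmb5, Wmb1, H6 and Wma6. The 3 lowest were the lowland sites with only warm bees, and the 2 lowland sites with only cool bees stood among the 5 highest. These places of the lowland sites repeat the contrast that chose the gene. The gap between neighbours in this order was below the larger of their standard deviations in all 15 pairs, and their ranges overlapped in all 15. The share of the variance of log2 CPM that lay between sites was 50.8% among lowland bees. All lowland sites but T4 hold only 1 temperature class, so that this share contains the contrast that chose the gene and is not independent of it. For the 51 bees of the higher belts the estimate of the share was -2.55%, that is, none could be measured. In the same 51 bees, the test over all differences between the 10 sites gave F = 0.94 (edgeR quasi-likelihood test, p = 0.498, adjusted p = 0.663), where 3.9% of 9844 genes were called.

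Within the mid-elevation and highland bees, which the temperature contrast did not use, the level was higher at higher altitude by 0.88 on the log2 scale per 1000 m (standard error 0.35, 95% interval 0.20 to 1.57, p = 0.0144 in edgeR's quasi-likelihood test). After adjustment over the 9322 genes tested it did not pass (adjusted p = 0.388), and 0.0107% of genes, a single gene, passed. This test counts the 51 bees as independent, though they come from 10 sites. With site as a random effect the slope was 0.78 (standard error 0.43, p = 0.073 in limma, adjusted p = 0.866). With counts added up by site it was 0.86 (standard error 0.22, p = 0.00274 in edgeR, adjusted p = 0.80). The mean log2 CPM of these 10 sites went with altitude at r = 0.69 (rho = 0.62). Without the 2 sites farthest from the median altitude, Wma6 and Wmb2, r was 0.38, over a narrower range of altitude. The fitted slope per 1000 m was 0.69 without Wma6 and 0.93 without Wmb2. Over all 16 sites r was 0.46 with altitude (rho = 0.43) and -0.45 with mean annual temperature (rho = -0.43). With plant species richness (r = -0.04) and plant cover (r = -0.09) of the site, the relation was close to 0 over the 16 sites. These correlations across sites are descriptions. Altitude and mean annual temperature move together along the gradient, and among the 10 mid-elevation and highland sites grazing is tied to altitude as well.

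Grazing classes did not differ in the test either. At grazed sites the level was 61.0 ± 28.5 CPM (SD, n = 45), with the lowest, median and highest bee at 16.8, 55.7 and 137 CPM. At ungrazed sites it was 77.2 ± 36.0 CPM (SD, n = 36), with 33.3, 73.4 and 187 CPM. The ranges overlapped, and the log2 fold change from ungrazed to grazed was -0.34 (standard error 0.15, 95% interval -0.63 to -0.05, p = 0.0255 in edgeR, adjusted p = 0.319), with 0.181% of 9385 genes called, 0.0426% higher and 0.139% lower at grazed sites. Over sites the difference was -0.34 in mean log2 CPM (two-sided exact permutation p = 0.117, adjusted over 4 comparisons 0.402, smallest possible p 8.74e-05). Both grazing comparisons use the lowland bees of the temperature contrast, so that they are not independent of the choice of the gene. In the lowland, 10 of 15 bees of grazed and 7 of 15 bees of ungrazed sites were warm.

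Within the mid-elevation and highland belts, grazing and altitude were tied in the design, because all mid-elevation sites were grazed and 1 of the 5 highland sites was. In the highland the 21 bees of ungrazed sites had 85.6 ± 41.7 CPM (SD) and the 5 bees of the grazed site 62.1 ± 38.05 CPM (SD). In the lowland, 15 bees of ungrazed sites had 65.4 ± 22.3 CPM (SD) and 15 bees of grazed sites 53.7 ± 29.2 CPM (SD). By temperature class, the lowland means at ungrazed and grazed sites were 77.7 and 86.9 CPM in cool bees and 51.2 and 37.1 CPM in warm bees. With grazing as a term in the fit, the log2 fold change from mid-elevation to highland was 0.02, and within grazed sites it was -0.056, in place of 0.31. In the same fit the value from lowland to mid-elevation was 0.31 in place of 0.13 (adjusted p = 0.378 in edgeR), and within grazed sites it was 0.27. The altitude slope of the higher belts was 0.80 per 1000 m with grazing in the fit, with a standard error of 0.65 in place of 0.35 (p = 0.219 in edgeR). Highland against lowland was at 0.22 within grazed sites, in place of 0.45, where 1 site of 5 bees stands for the highland. Within ungrazed sites it was 0.39, and with grazing in the fit 0.34. The difference between these higher belts and that between grazing classes cannot be told apart for this gene.

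**Figure D3:**
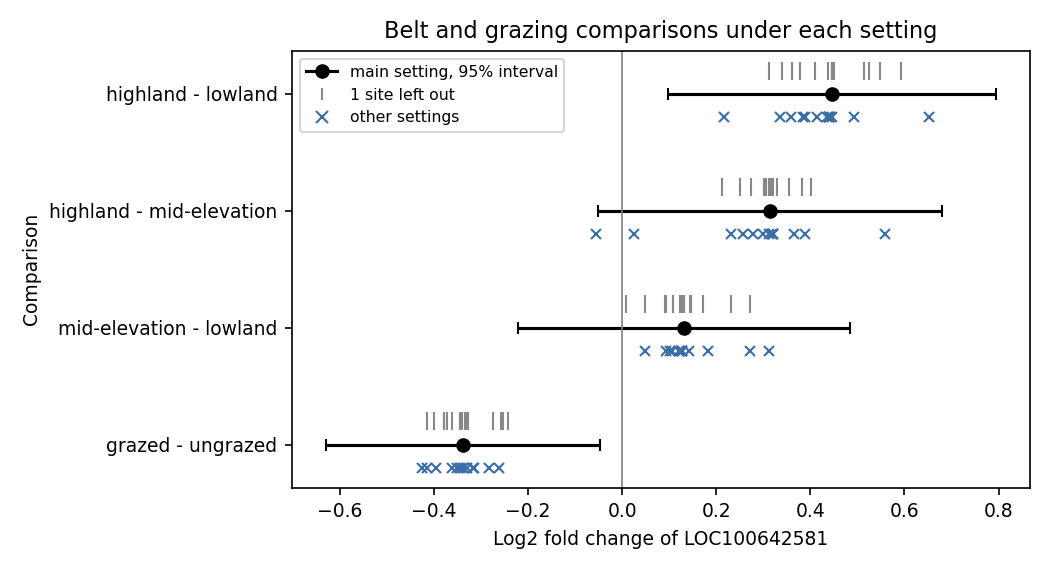
Log2 fold change of glucose transporter 1 (x axis) in the belt and grazing comparisons (y axis), as black points with 95% intervals, with each site left out in turn (grey bars) and under every other setting tried (blue crosses). The value for highland against lowland is 0.45 and stays above 0 throughout, while that for highland against mid-elevation reaches -0.056 in grazed sites.

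A search of the gene names at hand found 8 further sugar transporters, all named Tret1, the transporter of trehalose. Names were at hand for 1777 genes in all. For 5 of the 8 the name came only from tables of genes regulated in these same bees, so that their calls are not independent evidence. Their mean level was between 2.49 and 282 RPKM. From cool to warm, 2 of the 8 rose, both among those 5, and none fell, beside 3.1% and 0.967% of all genes, and the median log2 fold change was 0.75, against 0.00 over all genes tested. Glucose transporter 1 and LOC100643557 were below 0 there, and the other 7 were above 0.

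LOC100649031 rose with warmth by 0.77 on the log2 scale (standard error 0.19, adjusted p = 0.0229 in edgeR). Its lowest, median and highest bees had 312, 442 and 521 CPM when cool and 329, 708 and 1400 CPM when warm. The warm bees thus reached far above the cool ones but overlapped them at the low end. LOC100647696 rose by 1.67 (standard error 0.42, adjusted p = 0.0249 in edgeR), from 1.19, 2.48 and 7.5 CPM in the cool to 1.24, 6.07 and 35.7 CPM in the warm bees. At 3.77 RPKM it was among the weakest of the list. Both calls were lost without the bees whose summed level of gut markers was over 1000 CPM, which are 2 of the 13 cool and 10 of the 17 warm bees. LOC100649031 was then at 0.43 (standard error 0.19, adjusted p = 0.285 in edgeR) and LOC100647696 at -0.18 (standard error 0.34, adjusted p = 0.825 in edgeR). Of the values of LOC100649031, 93.8% were not whole numbers.

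The most abundant transporter, LOC100643557, with 282 RPKM, changed by -0.41 on the log2 scale from cool to warm (standard error 0.21, adjusted p = 0.214 in edgeR). In LOC100647601, with 210.0 RPKM, the value was 0.57 (standard error 0.42, adjusted p = 0.408 in edgeR). The next, LOC100647285, with 135 RPKM, was close to absent in some bees and abundant in others, from 0.04 to 903 CPM among the cool and 0.05 to 2060 CPM among the warm bees. Its log2 fold change of 2.75 had a standard error of 1.62. None of these 3 was called in a comparison of belts or of grazing. Between 42% and 84% of their values were not whole numbers, which shows that some reads were shared with another gene or position, but not how many.

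Between the belts, LOC100650588 was the only transporter called. It was higher in the highland than in the lowland by 1.03 (standard error 0.29, adjusted p = 0.0467 in edgeR) and than at mid-elevation by 1.27 (standard error 0.31, adjusted p = 0.0435 in edgeR), where 0.179% and 0.106% of all genes were called higher. Without the bees over 1000 CPM of gut markers these values were 1.86 (adjusted p = 0.00908 in edgeR) and 1.72 (adjusted p = 0.0515 in edgeR), so that the second call was lost. Its median was 11 CPM in lowland, 9.29 CPM in mid-elevation and 12.6 CPM in highland bees, so that the medians differed less than the fitted values. The highest bee alone held 14.1% of the summed level of LOC100650588 over all bees. Among the 8 transporters the median change between lowland and highland bees was 0.39 on the log2 scale, and none was called between mid-elevation and lowland or between grazing classes.

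**Figure D4:**
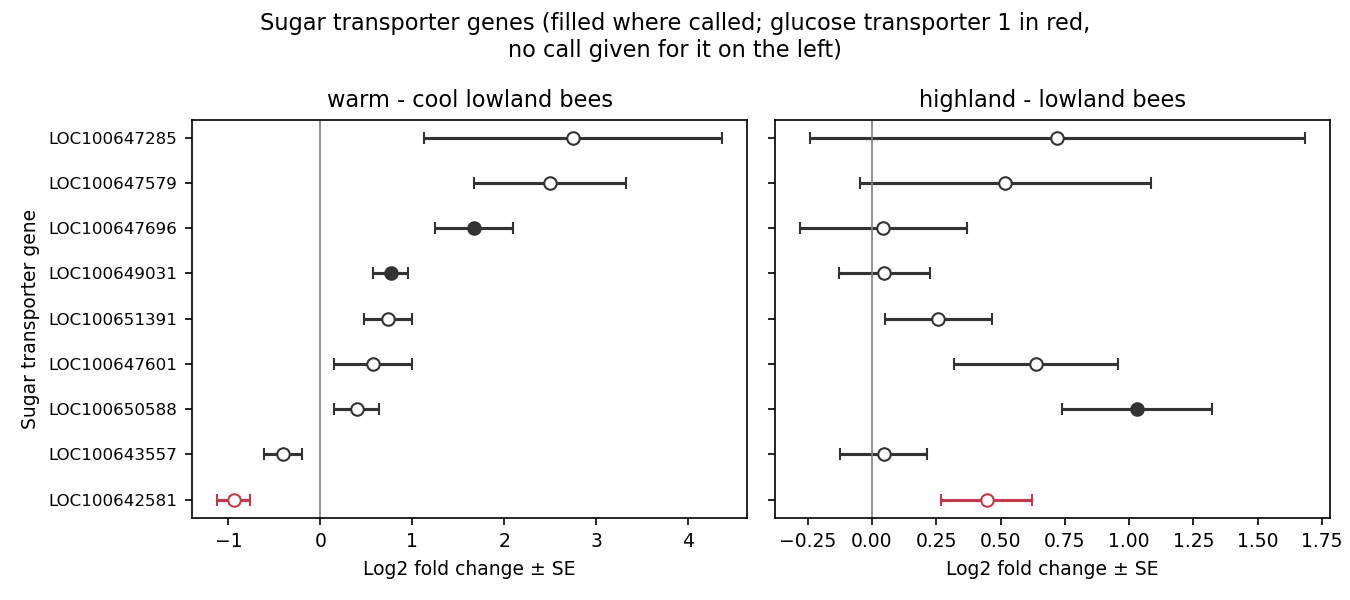
Log2 fold change ± standard error (x axis) of 9 sugar transporter genes (y axis) from cool to warm lowland bees (left) and from lowland to highland bees (right). Filled points were called. Glucose transporter 1, in red, is at -0.94 on the left, where no call is given for it because it was chosen by that contrast, and at 0.45 on the right.

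The enzymes downstream of trehalose uptake were named in part only. Trehalase LOC100646078 rose from cool to warm by 2.23 (standard error 0.65, adjusted p = 0.0392 in edgeR), with medians of 188 CPM in the cool and 385 CPM in the warm bees and highest bees at 1870 and 7400 CPM. It too was named only in a table of regulated genes. Its level followed the gut markers at rho = 0.74 over the 81 bees, and without the bees over 1000 CPM of these markers the call was lost, at 0.35 (standard error 0.22, adjusted p = 0.446 in edgeR). The medians were then 188 CPM in 11 cool and 220.0 CPM in 7 warm bees. A second trehalase, LOC100647648, was at -0.35 (standard error 0.15, adjusted p = 0.148 in edgeR) and followed glucose transporter 1 over the 81 bees at rho = 0.70. Phosphoglucomutase-2 (LOC100648849), which joins glycogen and glucose metabolism, was at 0.04 and was not called. Of the 3 genes of this list, 1 was thus called higher and none lower in warm bees, beside 3.1% and 0.967% of all genes. No gene of insulin or adipokinetic hormone signalling was among the names at hand, and the search for names of glycolysis enzymes gave 1 gene, a lactate dehydrogenase, which was too weak to be tested.

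A list of 23 glycolysis genes, drawn up earlier from these same bees, moved with glucose transporter 1 from bee to bee. The summed level of these genes had its lowest, median and highest bee at 12894, 19844 and 47541 CPM among the cool bees and at 14266, 18142 and 35160 CPM among the warm bees. It went with the level of glucose transporter 1 at rho = 0.79 over all 81 bees, 0.67 in the 30 lowland bees and 0.87 in the 51 others, and at 0.79 after the site means had been removed. From cool to warm the median log2 fold change of the list was -0.25, with 4 of the 23 genes above 0. None of the 23 was called, beside 4.06% of all genes for temperature, 0.686%, 0.211% and 0.369% for the belts and 0.181% for grazing, so that the count of 0 is near the background. From lowland to highland the median was 0.46, with all 23 above 0. Since the study chose the list on these bees, its direction is not independent evidence.

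Glucose transporter 1 also followed the summed level of muscle genes. Of 16 genes named for muscle proteins, such as troponins, tropomyosins, titins and twitchin, 15 were read well enough to be tested, and 12 of the 16 were named only in tables of regulated genes. Their summed level went with glucose transporter 1 at rho = 0.68 (r = 0.45) over 81 bees, 0.73 (r = 0.43) in lowland bees and 0.66 (r = 0.49) in the others, and at rho = 0.55 with site means removed. Without the 2 bees farthest from the median muscle level, r over the other bees was 0.57. The single genes did not all go the same way. Over the 81 bees rho was -0.12 for the titin LOC100643023, -0.15 for the titin LOC105665841 and -0.11 for the muscle calcium channel LOC100649439. For the rest of the list it lay between 0.29 and 0.73. The lowest, median and highest sums were 3533, 5243 and 45750 CPM in the cool bees and 2834, 3519 and 36209 CPM in the warm bees. None of the 15 genes was called from cool to warm, but their median log2 fold change was -0.78, with 2 of 15 above 0. By belt the median sums were 4105 CPM for lowland, 4880 CPM for mid-elevation and 5413 CPM for highland bees. The fitted changes of the single genes did not follow these sums. Their median log2 fold change was -0.13 from lowland to highland, with 3 of 15 above 0, and -0.40 from lowland to mid-elevation, with 2 above 0. From mid-elevation to highland it was 0.20, with 12 above 0. In such bulk samples, more muscle tissue in a library and more RNA of the gene per muscle cell cannot be told apart.

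**Figure D5:**
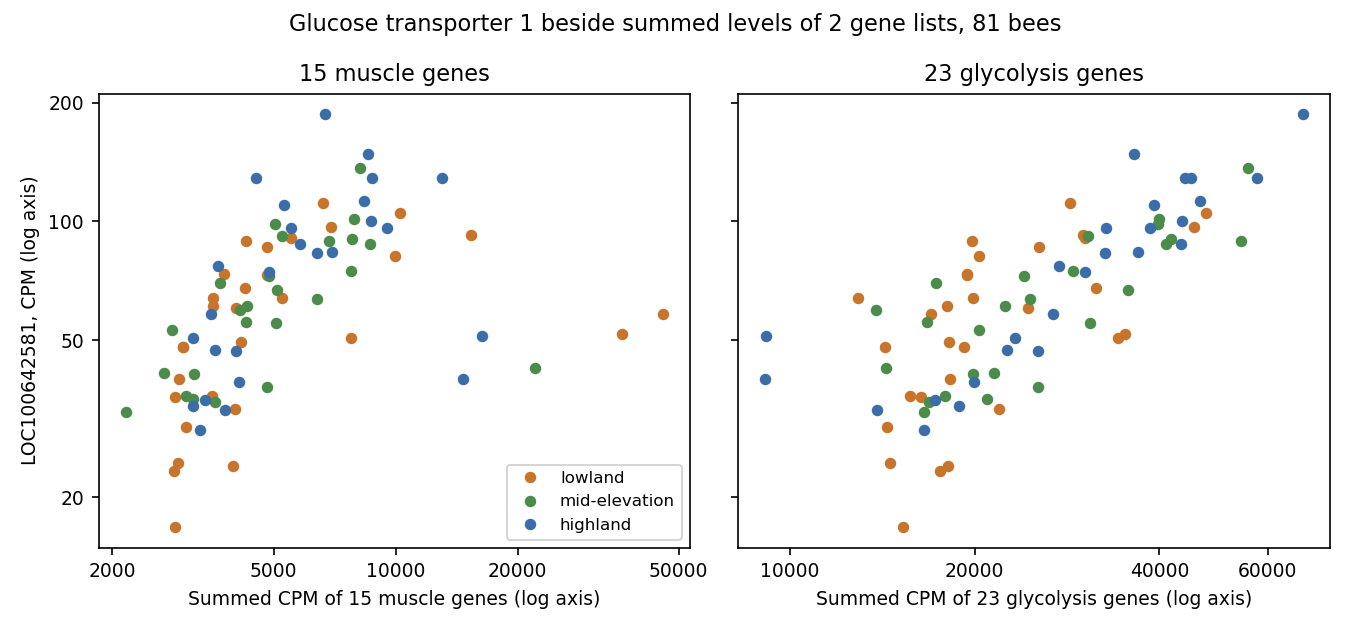
Level of glucose transporter 1 (y axis, CPM, log axis) against the summed level of 15 muscle genes (left) and of 23 glycolysis genes (right, both x axes in CPM, log axes), with 1 point per bee coloured by belt. The points lie along a rising band, at rho = 0.68 on the left, where a few bees with the highest muscle sums lie below the rest, and at 0.79 on the right.

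Markers of gut and fat body fell into sets of bees as well. The gut had been removed before extraction, but the summed level of 10 gut markers (peritrophins, chymotrypsins and trypsins) exceeded 1000 CPM in 44 of the 81 bees and was 244 CPM or less in the other 37. These 44 were 2 of the 13 cool and 10 of the 17 warm bees, and 12 lowland, 14 mid-elevation and 18 highland bees. The sum ran from 3.29 over a median of 8.33 to 42818 CPM in the cool and from 3.18 over 16903 to 53947 CPM in the warm bees. Over the 81 bees it had a rho of -0.01 with glucose transporter 1, and of -0.37 with site means removed. The single gut genes did not go the same way over the 81 bees. The rho was 0.74 for the chymotrypsin-2 LOC105665786, 0.53 for the trypsin LOC100644527 and 0.445 for LOC100648235, chymotrypsin-1-like. For the rest of the gut list it lay between -0.31 and -0.08. Without those 44 bees, an alternative chosen after the sums had been seen and used above for the sugar genes, the 11 cool bees left had 61.0 to 111 CPM and the 7 warm bees 23.9 to 90.7 CPM of glucose transporter 1, with a log2 fold change of -0.83 in place of -0.94. The altitude slope of the higher belts was then 1.45 per 1000 m (adjusted p = 0.602 in edgeR, 19 bees), and highland bees were higher than lowland bees by 0.65 on the log2 scale (adjusted p = 0.195 in edgeR, 37 bees). From mid-elevation to highland the value was 0.56 in place of 0.31 (adjusted p = 0.284 in edgeR). None of these was called. In the highland the median of glucose transporter 1 was 54.8 CPM in the 18 bees with gut markers over 1000 CPM and 103 CPM in the 8 others. In mid-elevation bees these medians were 58.1 and 69.9 CPM, and in lowland bees 45.2 and 68.6 CPM.

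The summed level of 3 fat body genes (a hexamerin and 2 vitellogenins) ran from 14.2 over a median of 24 to 3287 CPM in the cool bees and from 12.5 over 55.5 to 2761 CPM in the warm bees. It went against glucose transporter 1 at rho = -0.40 over all bees, and at -0.48 with site means removed. The 3 genes did not go the same way over the 81 bees. The rho was -0.55 for LOC100643258, vitellogenin-like, and -0.495 for the hexamerin LOC100650380, but 0.46 for the vitellogenin LOC100649251. No gene was found for the head markers, opsin and arrestin, in the names at hand. The study reports RNA integrity that ranged widely between its samples, from low to high, and integrity values were not used here. The slope of log2 CPM on exon length, a measure that can move with RNA breakage in poly-A libraries, was not checked against integrity values. It had a rho of -0.07 with the gene over 81 bees, and total reads a rho of 0.05. The median slope was 0.354 in cool bees (0.125 to 0.471) and 0.303 in warm bees (0.145 to 0.412). The part of muscle, glycolysis and fat body transcripts in the difference between cool and warm bees was not tested.

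The gene most like glucose transporter 1 in level over the 81 bees, of 9474 compared by Spearman's rho of log2 CPM, was LOC100644296, ubiquitin thioesterase trabid, an enzyme that removes ubiquitin from proteins, at 0.88. Among the next 9, at 0.82 to 0.85, those with names were LOC100642496, a pseudouridylate synthase domain protein (0.85), the uncharacterized LOC100649397 (0.83) and LOC100644616, ankyrin repeat and SOCS box protein 16 (0.82). For the same 10 genes rho was between 0.81 and 0.91 in the 51 bees of the higher belts, between 0.68 and 0.86 in lowland bees, and between 0.80 and 0.86 after site means were removed. These bees are among those that chose the genes. Ranked anew, 4 of the 10 stayed among the 10 most alike in the higher belts, 6 in the lowland and 6 with site means removed. Of the 9474 genes, 146 had a rho over 0.7, and the median was -0.05. The levels least alike were those of LOC100651587 (-0.72), LOC100645127, LOC100643655, nucleolin (LOC100644519, -0.69), a protein of ribosome assembly in the nucleolus, and LOC100652223 (-0.69). The neighbours on the contig were not among them, with rho of -0.15 for LOC100644735 and 0.37 for LOC100646480. All these correlations are over bees of the same libraries and scaling, and are descriptions.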

How the data were processed

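The deposited table holds estimated counts per gene and bee. The authors demultiplexed reads with bcl2fastq 2.20.0.422, trimmed them with Cutadapt 2.5, aligned them with STAR 2.7.2b to Bter_1.0 and counted them with featureCounts 1.6.4, by strand and as fractions where a read matched several positions or genes. The column totals, used as depth, were 15700759 to 33784279 with a median of 26082949. Here values were rounded, filtered with filterByExpr, scaled by TMM and tested by the quasi-likelihood F test of edgeR 4.0.16 in R 4.3.3 (belts in 1 model of 81 bees, grazing over 81 bees, altitude over 51 bees, temperature over 30 bees without a p for this gene), with Benjamini-Hochberg adjustment over all genes. Standard errors are the log2 fold change over the square root of F. Log2 CPM used a prior count of 2. Site means were compared by exact permutation. Bees counted as independent in edgeR. The correlation of bees of 1 site, estimated with limma 3.58.1, was 0.20 for this gene between belts and 0.17 between grazing classes. No 2 bees had identical columns. The alternatives were DESeq2 1.42.0 with and without a fold-change prior, its size factors in edgeR, no filter, counts added up by site, site as a random effect, bee number as a block, each site or bee left out, added covariates and subsets of bees. The scripts were tested on simulated data. Named genes are glucose transporter 1, the 10 genes most and 5 least like it in level, sugar transporters that were called or are the 3 most abundant, and up to 4 called genes of each other sugar list. The unnamed ones of the 10 are given as a range. Single marker genes are also named where the genes of a list went different ways. The gene and the lists were chosen with earlier results of these data known, and the pathway list, the gut and muscle limits and the length slope after the levels had been seen. Contigs are named by accession in the table and are not printed, and no sequence of the gene was used here.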

Additional observations from a re-analysis of the deposited data

How the results depend on the processing

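Of 185 alternative values, 149 had an adjusted p (137 fold changes or slopes and 12 tests over all sites). Of the 137, 135 kept their direction and their side of the threshold. The exceptions were the log2 fold change from lowland to highland without site Wmb1, which passed at 0.59, and that from mid-elevation to highland within grazed sites, which reversed to -0.056. None of the 12 passed. Of the values without an adjusted p, all 13 for belts, grazing and altitude and all 23 for sampling temperature, whose contrast chose the gene, kept their sign. Sampling temperature in degrees is in another unit, at -0.14 per degree. With each site left out in turn the values ran from 0.31 to 0.59 for highland against lowland (adjusted p from 0.0438 to 0.482 in edgeR), from 0.21 to 0.40 for highland against mid-elevation, from 0.0076 to 0.27 for mid-elevation against lowland, where the lowest was without Wma1, from -0.41 to -0.24 for grazing, from 0.69 to 0.93 per 1000 m for altitude and from -1.11 to -0.79 for sampling temperature. Leaving out single bees moved the difference of mean log2 CPM only between 0.36 and 0.47, 0.18 and 0.29, 0.12 and 0.22, -0.39 and -0.32, and -1.09 and -0.94 for highland against the lowland, for highland against mid-elevation, for mid-elevation against the lowland, for grazing and for temperature. The cause of these changes was not tested. The bee number in the labels is a number within a site only. Deviations from belt means of bees with the same number at different sites had a mean correlation of 0.01, and of those with different numbers -0.02, so that the numbers do not pair bees. With bee number as a replicate block the values were 0.49, 0.37 and 0.13 for the belts in the order above, -0.36 for grazing, 1.02 per 1000 m and -0.93 for temperature, with no call for belts, grazing or altitude. The fit of DESeq2 without a prior gave no adjusted p for altitude. Depth limits little here, since the gene has at least 408 reads in each bee. Few sites per class and unknown nestmates limit every comparison.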
